A study of Rattus norvegicus with 26 samples.

Results

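The genes described here are the chondroitin sulfate proteoglycans and link proteins of the rat spinal cord: the lecticans Acan, Bcan, Ncan and Vcan, the other proteoglycans Cspg4, Cspg5 and Ptprz1, and the link proteins Hapln1, Hapln2 and Hapln4. They were chosen by gene name, and all 10 were among the 32883 genes of the count table and among the 17990 genes that passed the filter on low counts. RNA sequencing was done on 26 libraries of spinal cord segments of 5 mm from wild type adult female Sprague-Dawley rats, labelled as post natal day 70 and 250 g in weight. Intact libraries (n = 4) came from untreated rats, which the study calls intact or sham. All other rats had a compression of the cord at T10 with an aneurysm clip of 60 g for 1 min, and the segments were centered at the lesion. The sub-SCI libraries (n = 3) were taken at the time of transplantation, 7 days after injury. The remaining rats were taken 1, 2 or 4 weeks post-transplantation (wpt), either without cells, given the vehicle (+PBS, n = 3, 2 and 4), or with an intrathecal injection of hUC-MSCs, human mesenchymal stem cells of the umbilical cord (+MSC, n = 3, 3 and 4). By the study's methods the rats also received the immunosuppressant cyclosporin A daily, and whether this included the Intact rats is not said. The labels do not say whether replicates of a group were separate rats, so the p-values measure the spread between these libraries.

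Chondroitin sulfate proteoglycans are core proteins that carry long sulfated sugar chains. The lecticans bind the polysaccharide hyaluronan at one end and tenascins at the other, and link proteins lock the lectican onto hyaluronan. Aggrecan (Acan), Hapln1 and Hapln4 build the perineuronal nets, dense coats around the cell bodies and synapses of many large and fast-firing neurons, whereas brevican (Bcan) and Hapln2 are known from the matrix at nodes of Ranvier. After spinal cord injury, neurocan (Ncan), versican (Vcan) and NG2 (Cspg4) are known as components of the scar, where their sugar chains hinder axon growth.

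The lectican and link protein genes lie as neighbours in the rat genome. In the RefSeq gene table (GRCr8), Ncan and Hapln4, Vcan and Hapln1, Bcan and Hapln2, and Acan and Hapln3 each had 0 protein-coding genes between them. The 250 bases before the RefSeq start are shown for both genes of the pairs Ncan and Hapln4 and Vcan and Hapln1, because the genes of these pairs moved in opposite directions after injury. Capitals mark a match on either strand to a TATA element, searched as TATAA, a GC box, searched as GGGCGG, or an AP-1 element, searched as TGANTCA. Each sequence is written 5′ to 3′ on the strand of its gene, and in Ncan 2 matches to TATAA, 1 on each strand, overlap.
Ncan, chr16:19335657-19335906, plus strand: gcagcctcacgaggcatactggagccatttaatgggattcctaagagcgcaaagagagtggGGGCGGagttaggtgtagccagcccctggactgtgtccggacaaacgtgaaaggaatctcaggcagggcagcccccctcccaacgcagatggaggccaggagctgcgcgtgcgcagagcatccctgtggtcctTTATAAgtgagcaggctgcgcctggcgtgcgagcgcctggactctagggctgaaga
Hapln4, chr16:19375174-19375423, minus strand: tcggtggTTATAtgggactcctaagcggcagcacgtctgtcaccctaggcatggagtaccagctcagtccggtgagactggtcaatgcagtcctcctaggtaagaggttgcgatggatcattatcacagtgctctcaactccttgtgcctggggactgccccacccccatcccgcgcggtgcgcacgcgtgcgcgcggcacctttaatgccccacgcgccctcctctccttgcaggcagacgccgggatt
Vcan, chr2:22595956-22596205, minus strand, at the outermost of 2 listed starts: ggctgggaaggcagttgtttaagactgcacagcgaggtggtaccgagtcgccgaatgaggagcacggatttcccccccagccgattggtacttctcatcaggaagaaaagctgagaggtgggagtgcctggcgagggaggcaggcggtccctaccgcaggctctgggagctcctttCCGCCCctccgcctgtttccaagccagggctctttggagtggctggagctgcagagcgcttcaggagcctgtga
Hapln1, chr2:22366717-22366966, plus strand: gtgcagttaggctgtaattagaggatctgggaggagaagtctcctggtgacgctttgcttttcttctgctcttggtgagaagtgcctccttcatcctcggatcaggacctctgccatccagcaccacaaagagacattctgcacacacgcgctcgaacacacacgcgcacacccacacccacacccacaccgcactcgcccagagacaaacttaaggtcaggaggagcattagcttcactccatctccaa
The Ncan window held a TATA element and a GC box, the Hapln4 window a TATA element, the Vcan window shown a GC box and the Hapln1 window neither. Of 33469 such windows of all genes, 24% held TATAA, 30.5% GGGCGG and 6.34% TGANTCA. A window was listed for 8 of the 10 genes. GGGCGG was found in those of Acan, Bcan, Ncan, Vcan and Cspg4 and in none of those of Hapln1, Hapln2 and Hapln4, and TGANTCA in none. TATAA was found in those of Ncan and Hapln4 and in 1 of the 2 of Vcan, the one that is not shown, and in none of those of the other 5 genes. These are matches of letters and describe the windows only.

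Total counts per library lay between 19496602 and 43468509. Levels are given as CPM (counts scaled by library size, here with trimmed mean of M-values, TMM) in each library or as mean ± SD, and levels of different genes are compared only as CPM per kb of the gene length in the files. Differences are log2 fold changes from edgeR's quasi-likelihood test in 1 model of the 26 libraries, with Benjamini-Hochberg adjustment over all genes tested. The study's thresholds define a DEG (differentially expressed gene): an adjusted p under 0.01 together with a log2 fold change beyond 1 in either direction, whereas "differs" means an adjusted p under 0.05 without the fold threshold. The study applied its thresholds to another test, DESeq2, so the DEGs counted here with edgeR are not the study's DEGs. Markers of neurons, astrocytes, oligodendrocytes and their precursors, microglia, endothelial cells and mural cells were present in every group, apart from the endothelial marker Cldn5, which was at 0 throughout. As all samples are bulk tissue, fewer cells of a type and less RNA per cell cannot be told apart.

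In Intact cord the link protein Hapln2 had the highest level per kb of the 10 genes, at 372 ± 32.9 CPM per kb (SD, n = 4). Bcan followed with 131 ± 11.9, Hapln4 with 89.6 ± 8.36, Ptprz1, a receptor phosphatase that also exists as a secreted proteoglycan, with 33.3 ± 2.3 and Cspg5, a transmembrane proteoglycan also called neuroglycan C, with 31.8 ± 2.99 CPM per kb. The last 2 lay within each other's spread. Ncan had 16 ± 2.12 CPM per kb and Vcan 9.39 ± 0.692. Cspg4, the proteoglycan of oligodendrocyte precursors and pericytes, with 6.34 ± 0.56, and Hapln1, with 5.96 ± 1.09, did not differ beyond their spread, and Acan was lowest with 4.57 ± 0.0814 CPM per kb. The 3 nets components thus ranged from the lowest of the 10 (Acan) to the third highest (Hapln4).

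**Figure D1:**
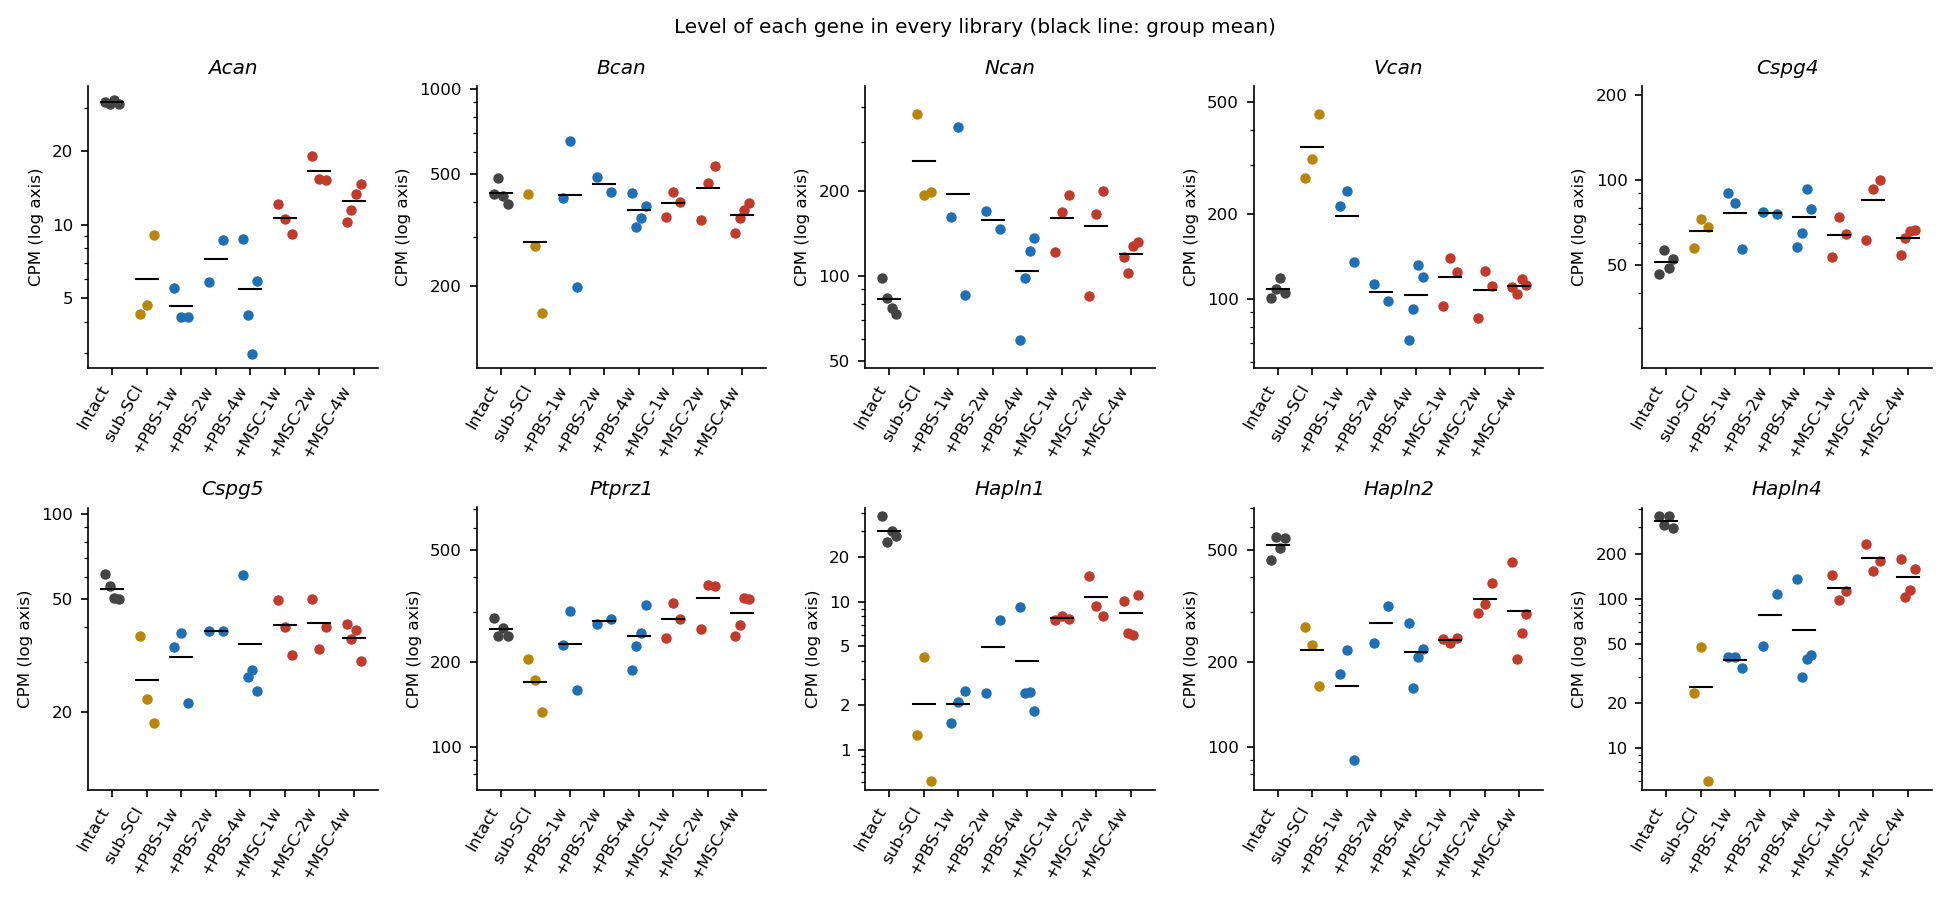
Level of each gene in every library, in CPM on a log axis, by group; each point is a library and the black line the group mean. Acan, Hapln1 and Hapln4 were highest in the 4 Intact libraries, Vcan in the 3 sub-SCI libraries, and the +MSC libraries of Acan (9.18 to 19.2 CPM) lay above all +PBS libraries (2.95 to 8.72 CPM).

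Injury was first examined as sub-SCI against Intact, at the time of transplantation. Of the 10 genes, Ncan and Vcan were DEGs higher, and Acan, Cspg5, Hapln1, Hapln2 and Hapln4 were DEGs lower. Over all genes tested, 16.6% were DEGs higher and 17.5% DEGs lower in the same comparison. Ptprz1 differed lower, and Bcan and Cspg4 were not called. The ranges of the libraries did not overlap for 9 of the 10 genes, 3 higher and 6 lower, against 32.9% of all genes higher and 34.0% lower.

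Among the lecticans, the scar components rose. Vcan had 101, 109, 119 and 105 CPM in the 4 Intact libraries and 270, 314 and 454 CPM in the 3 sub-SCI libraries. Every sub-SCI library thus lay above every Intact library, and the log2 fold change was 1.67 ± 0.21 (SE, edgeR, adjusted p = 6.63e-07). Ncan, a lectican of astrocytes and neurons, had 98.4, 83.7, 77.5 and 73.3 CPM in Intact and 375, 194 and 198 CPM in sub-SCI. Its log2 fold change was 1.62 ± 0.35 (SE, adjusted p = 0.00045) in edgeR's test, and replicate 1 of sub-SCI lay far above the other two. Aggrecan moved the other way. Acan had between 31.2 and 32.4 CPM in the 4 Intact libraries and 4.30, 4.71 and 9.05 CPM in sub-SCI, with a log2 fold change of -2.40 and a SE of 0.29 (adjusted p = 4.78e-07). Brevican had 425, 484, 419 and 392 CPM in Intact and 426, 277 and 161 CPM in sub-SCI. These ranges overlapped, and the log2 fold change of -0.58 (95% interval -1.18 to 0.02) was not called, although Bcan passed the threshold without sub-SCI replicate 1 (-0.97, adjusted p = 0.00991) or without +PBS-1w replicate 3, which left its value at -0.58 (adjusted p = 0.0339).

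Hapln4, Hapln1 and Hapln2 all fell. Hapln4, which is known from nets around neurons of the brainstem and cerebellum, had 358, 311, 356 and 298 CPM in Intact and 23.4, 47.5 and 6.0 CPM in sub-SCI. The log2 fold change was -3.69 ± 0.56 (SE, adjusted p = 8.2e-06). Hapln1, the link protein first known from cartilage, had 38.1, 25.2, 30.2 and 27.8 CPM in Intact against 1.25, 4.24 and 0.61 CPM in sub-SCI, where it rested on 18 to 117 counts per library. The log2 fold change was -3.91 ± 0.61 (SE, adjusted p = 1.09e-05), so that Hapln1 and Hapln4 had the 2 largest changes of the 10 genes. Hapln2, the link protein of myelinated tracts, had between 458 and 555 CPM in Intact and 266, 230 and 164 CPM in sub-SCI, a smaller log2 fold change (-1.23 ± 0.27, SE, adjusted p = 0.000413).

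The other proteoglycans changed less. Cspg5 had 61.2, 55.8, 50.7 and 50.3 CPM in Intact and 37.1, 22.1 and 18.3 CPM in sub-SCI, or -1.07 ± 0.29 (SE) on the log2 scale (adjusted p = 0.00286). This was close to the fold threshold, and Cspg5 still differed but was no DEG without Intact replicate 1 (-0.95), sub-SCI replicate 2 (-0.97) or sub-SCI replicate 3 (-0.88). Ptprz1 had between 248 and 286 CPM in Intact and 205, 173 and 133 CPM in sub-SCI, a difference of -0.62 ± 0.20 on the log2 scale (SE, adjusted p = 0.0119) that was no longer called without sub-SCI replicate 3 (adjusted p = 0.0835) or without Intact replicate 1 (adjusted p = 0.052). Cspg4 had between 46.4 and 56.8 CPM in Intact and 57.8, 72.6 and 68.1 CPM in sub-SCI. Its sub-SCI libraries all lay above Intact, but the log2 fold change of 0.37 (95% interval 0.00 to 0.74) missed the threshold (adjusted p = 0.077). It was called in 8 of 35 alternatives, among them edgeR (adjusted p = 0.0101) and DESeq2 (adjusted p = 0.00501) on these 2 groups alone and the fits without Intact replicate 2 (0.48, adjusted p = 0.0408), +PBS-2w replicate 1 (adjusted p = 0.0473) or +PBS-4w replicate 1 (adjusted p = 0.0308).

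Cell type markers moved in the same comparison. All 10 neuron markers differed lower, with a median log2 fold change of -2.86 against -0.02 over all genes tested, and their summed level ranged from 11863 to 14191 CPM in Intact and from 585 to 2700.2 CPM in sub-SCI. The 6 markers of fast-spiking and motor neurons also all differed lower (median -3.35). Of 10 oligodendrocyte markers, 9 differed lower (median -1.14), and of 8 astrocyte markers 5 differed lower and 0 higher (median -1.33). All 7 fibroblast markers (median 3.96) and all 8 markers of microglia and macrophages (median 3.09) differed higher, the fibroblast sum from 159 to 1091 CPM in Intact to 7723 to 18753 CPM in sub-SCI. None of these markers was at 0 in a whole group. Their part in the changes of the 10 genes was not tested.

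The vehicle groups give the later course after injury. They differ from sub-SCI in time, in the vehicle injection and, by the study's methods, in more days of cyclosporin A, which cannot be told apart. Against Intact, 1 gene was a DEG higher (Ncan) and 4 DEGs lower (Acan, Hapln1, Hapln2, Hapln4) in +PBS-1w, where 13.5% of all genes were DEGs higher and 12.5% lower. In +PBS-2w, 0 were DEGs higher and 2 lower (Acan, Hapln1), against 8.84% and 5.66% of all genes, with 2 libraries only. In +PBS-4w, 0 were DEGs higher and 4 lower (the same 4 as in +PBS-1w), against 13.3% and 10.7%. How many of all genes lay wholly above or below Intact in the +PBS groups is not given here.

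Vcan and Ncan were lower at 4 wpt than in sub-SCI. Vcan had 214, 243 and 136 CPM in +PBS-1w, 113 and 99.0 CPM in +PBS-2w and 71.7, 92.7, 132 and 120 CPM in +PBS-4w. Only the first of these groups lay wholly above Intact, at a log2 fold change of 0.86 ± 0.21 (adjusted p = 0.00151). At 4 wpt the log2 fold change against Intact was -0.06 (95% interval -0.47 to 0.34), and against sub-SCI it was -1.73 ± 0.21 (SE, adjusted p = 8.8e-06), the only DEG of the 10 genes in that comparison, in which 3.09% of all genes were DEGs lower and 4.28% higher. Ncan had 163, 337 and 86.1 CPM in +PBS-1w, 170 and 147 CPM in +PBS-2w and 59.6, 98.3, 123 and 137 CPM in +PBS-4w. The log2 fold change against Intact at 1 wpt, 1.23 ± 0.35 (SE, adjusted p = 0.00567), rested on replicate 2, without which it was 0.58 (adjusted p = 0.156). At 2 wpt Ncan was at 0.93 ± 0.39 on the log2 scale, both libraries above Intact, and was not called (adjusted p = 0.0661), although edgeR on these 2 groups alone called it (adjusted p = 0.00142). Against sub-SCI, Ncan was lower at 4 wpt (-1.29 ± 0.35 on the log2 scale, SE, adjusted p = 0.0102), which lost its call without sub-SCI replicate 1 (-0.91, adjusted p = 0.0866). In the same comparison of +PBS-4w with sub-SCI, 6 of the 7 fibroblast markers had a negative log2 fold change and 3 differed lower (median -1.64), and of the 8 markers of microglia and macrophages all had a negative one and 4 differed lower (median -0.75). The fibroblast sum lay between 1185 and 4567 CPM in +PBS-4w. Their part in the fall of Vcan and Ncan was not tested.

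Acan stayed low. It had 5.53, 4.18 and 4.20 CPM in +PBS-1w, 5.83 and 8.66 CPM in +PBS-2w and 8.72, 4.27, 2.95 and 5.87 CPM in +PBS-4w. Against the 31.7 CPM of Intact these were log2 fold changes of -2.77 ± 0.30, -2.13 ± 0.34 and -2.54 ± 0.27 (SE, adjusted p at most 5.76e-05). From sub-SCI to +PBS-4w the log2 fold change was -0.14 (95% interval -0.72 to 0.44).

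The net link proteins stayed below Intact too. Hapln4 had 40.7, 40.9 and 34.3 CPM in +PBS-1w, 48.2 and 108 CPM in +PBS-2w and 136, 29.7, 39.3 and 42.1 CPM in +PBS-4w. Each of these libraries lay below the lowest Intact library, with log2 fold changes of -3.10 ± 0.55 at 1 wpt, -2.08 ± 0.61 at 2 wpt (adjusted p = 0.0109, no DEG) and -2.42 ± 0.47 at 4 wpt. Hapln1 had 1.52, 2.09 and 2.48 CPM in +PBS-1w, 2.40 and 7.47 CPM in +PBS-2w and 9.20, 2.40, 2.46 and 1.84 CPM in +PBS-4w, with log2 fold changes of -3.90 ± 0.61, -2.62 ± 0.67 and -2.92 ± 0.51. At 2 wpt neither was called without +PBS-2w replicate 1 (Hapln1 -2.0, adjusted p = 0.12, and Hapln4 -1.59, adjusted p = 0.191). Hapln2 had 181, 221 and 89.7 CPM, then 233 and 315 CPM, then 274, 162, 208 and 222 CPM, all below Intact, with log2 fold changes of -1.66 ± 0.27, -0.92 ± 0.31 and -1.26 ± 0.24, the second of which was not called without +PBS-2w replicate 1 (-0.69, adjusted p = 0.262). From sub-SCI to +PBS-4w the log2 fold change was 1.27 (95% interval 0.22 to 2.32, adjusted p = 0.0695) for Hapln4 and 0.98 (-0.17 to 2.14) for Hapln1. Without sub-SCI replicate 2 both were called, at 2.07 (adjusted p = 0.0117) and 2.09 (adjusted p = 0.0179). Neuron markers were low at these times as well. Against Intact, 9 of the 10 differed lower in +PBS-1w (median log2 fold change -2.14), 5 in +PBS-2w (-1.51) and 10 in +PBS-4w (-1.88), and of the 6 markers of fast-spiking and motor neurons 6, 3 and 6 did. Their part in the levels of Acan, Hapln1 and Hapln4 was not tested.

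Cspg4 was raised at the later times. In +PBS-1w it had 89.9, 83.1 and 57.0 CPM, in +PBS-2w 77.2 and 75.7 CPM and in +PBS-4w 57.9, 65.1, 93.5 and 78.9 CPM. All 9 libraries lay above the highest Intact library (56.8 CPM), the lowest of them narrowly (57.0 CPM). The log2 fold changes were 0.58 ± 0.18, 0.58 ± 0.20 and 0.53 ± 0.17 (SE, edgeR, adjusted p = 0.00862, 0.0269 and 0.0109), none past the fold threshold. The call was lost at 1 wpt without +PBS-1w replicate 1 (adjusted p = 0.0627), at 2 wpt without either +PBS-2w library (0.148 and 0.0872) or Intact replicate 3 (0.0536), and at 4 wpt without +PBS-4w replicate 3 (0.0573). Cspg5 differed lower in +PBS-1w (log2 fold change -0.81 ± 0.29, SE, adjusted p = 0.0221) and in +PBS-4w (-0.64 ± 0.26, adjusted p = 0.0432), where replicate 1 had 61.1 CPM and the others 26.5, 28.1 and 23.6 CPM. Without that library the log2 fold change was -1.01 and Cspg5 was a DEG (adjusted p = 0.000446). Without any other +PBS-4w library, any +PBS-2w library or any Intact library it was not called (adjusted p between 0.0518 and 0.14), and at 1 wpt the call was lost without Intact replicate 1 or 2 or +PBS-1w replicate 3 (adjusted p between 0.055 and 0.129). Ptprz1 and Bcan were not called against Intact at any of the 3 times.

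**Figure D2:**
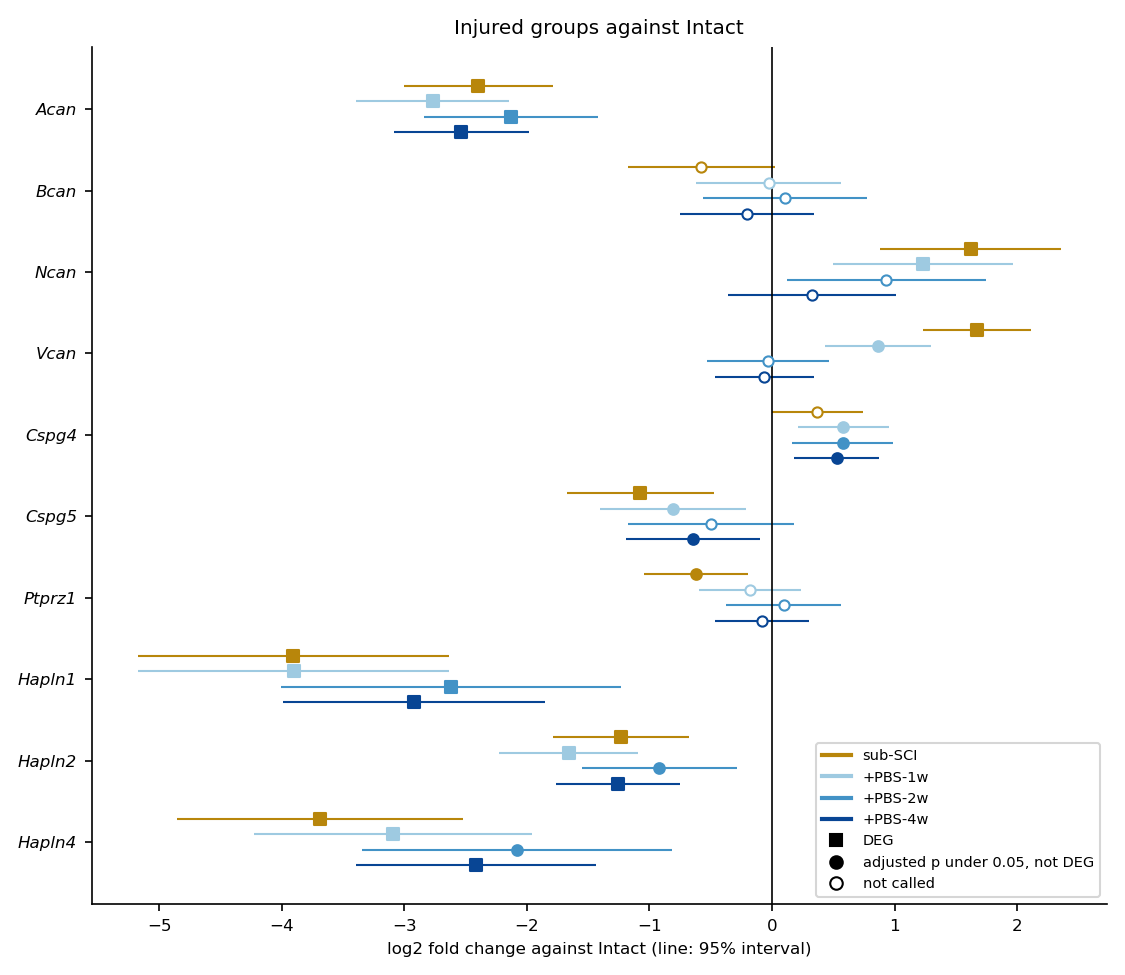
Log2 fold change of each gene in sub-SCI and in the 3 +PBS groups against Intact; lines are 95% intervals, squares are DEGs, filled circles have an adjusted p under 0.05 without being DEGs and open circles are not called. Acan, Cspg5, Hapln1, Hapln2 and Hapln4 lie to the left of 0 at all times, while Vcan lies at -0.03 by 2 wpt.

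The comparison of +MSC with +PBS of the same week shows the difference between transplanted and vehicle rats. By single weeks, 0 of the 10 genes were DEGs at 1, 2 or 4 wpt, and 1 (Acan at 4 wpt) differed. Over all genes tested, the DEGs that were higher made up 0% at 1 wpt, 0% at 2 wpt and 0.495% at 4 wpt, those that were lower 0.0111%, 0% and 0%, while 0.100%, 0% and 4.00% had an adjusted p under 0.05 and 3219, 2219 and 4048 genes an unadjusted p under 0.05. DESeq2 on the 2 groups alone called 3, 2 and 1 of the 10 genes DEGs at these weeks. The shares of all genes above are from edgeR, and none is given for these DESeq2 fits, so the 2 cannot be compared. DESeq2 on the 2 groups gave smaller adjusted p, for Hapln1 at 1 wpt 1.43e-11 against 0.12 in edgeR. The study, which used DESeq2, reported genes changed by injury and shifted back by hUC-MSCs at each of these weeks. Over the mean of the 3 weeks, Acan, Hapln1 and Hapln4 were DEGs higher in +MSC and 0 genes were lower, against 1.61% and 0.956% of all genes tested.

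Acan had 12.1, 10.5 and 9.18 CPM in +MSC-1w against 5.53, 4.18 and 4.20 CPM in +PBS-1w. At 2 wpt it had 19.2, 15.4 and 15.2 CPM against 5.83 and 8.66 CPM, and at 4 wpt 10.3, 11.5, 13.4 and 14.6 CPM against 8.72, 4.27, 2.95 and 5.87 CPM. The groups did not overlap in any week, which held for 2.68% of all genes in this direction. The log2 fold changes were 1.19 ± 0.30 (SE, adjusted p = 0.077), 1.20 ± 0.34 (adjusted p = 0.203) and 1.19 ± 0.26 (adjusted p = 0.0131), and the mean was 1.19 ± 0.17 (adjusted p = 0.000331). The call at 4 wpt was lost without +PBS-4w replicate 2 (1.09, adjusted p = 0.0608) and with edgeR on these 2 groups only (1.21, adjusted p = 0.128).

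Hapln4 had 145, 98.0 and 112 CPM in +MSC-1w and 40.7, 40.9 and 34.3 CPM in +PBS-1w. In +MSC-2w it had 232, 153 and 179 CPM against 48.2 and 108 CPM, and in +MSC-4w 184, 103, 114 and 158 CPM against 136, 29.7, 39.3 and 42.1 CPM. The groups overlapped at 4 wpt only, through +PBS-4w replicate 1. The log2 fold changes were 1.61 ± 0.53, 1.27 ± 0.60 and 1.17 ± 0.46 (SE, adjusted p = 0.14, 0.403 and 0.131), with a mean of 1.35 ± 0.31 (adjusted p = 0.00475). Without +PBS-4w replicate 1 the value at 4 wpt was 1.89 and Hapln4 was a DEG (adjusted p = 0.0062).

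Hapln1 had 7.48, 8.06 and 7.60 CPM in +MSC-1w against 1.52, 2.09 and 2.48 CPM in +PBS-1w. At 2 wpt it had 15, 9.32 and 8.07 CPM against 2.40 and 7.47 CPM, and at 4 wpt 10.2, 6.16, 5.94 and 11.2 CPM against 9.20, 2.40, 2.46 and 1.84 CPM. Here too only the groups at 4 wpt overlapped. The log2 fold changes were 1.93 ± 0.59, 1.13 ± 0.64 and 1.06 ± 0.49 (SE, adjusted p = 0.12, 0.478 and 0.203), with a mean of 1.37 ± 0.34 (adjusted p = 0.00683). Without +PBS-4w replicate 1 the value at 4 wpt was 1.87 (adjusted p = 0.0106). The mean lost its call without +PBS-2w replicate 1 (1.15, adjusted p = 0.057), and there Hapln4 had a mean of 1.17 and was no longer a DEG (adjusted p = 0.0449). Hapln4 was also no DEG without +MSC-1w replicate 1, +MSC-2w replicate 1 or +PBS-1w replicate 3 (adjusted p between 0.0105 and 0.0116), nor was Hapln1, so that each of these 4 omissions left Acan as the only DEG. Hapln1 was also no DEG without 1 of several further libraries (adjusted p at most 0.0133).

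The other 7 genes were not called over the mean of the weeks. Hapln2 had 240 ± 5.33 (SD, n = 3), 333 ± 44.0 (n = 3) and 302 ± 107 CPM (n = 4) in +MSC and 164 ± 67.3 (n = 3), 274 ± 57.8 (n = 2) and 217 ± 46.3 CPM (n = 4) in +PBS, a mean difference of 0.44 ± 0.16 (SE) on the log2 scale (adjusted p = 0.0537). With the replicate number as a block this was 0.47 (adjusted p = 0.0382). Ptprz1 had a mean log2 fold change of 0.28 (95% interval 0.02 to 0.54, adjusted p = 0.11), Cspg5 of 0.18 (-0.18 to 0.54), Bcan of -0.07 (-0.43 to 0.30), Ncan of -0.05 (-0.50 to 0.41), Cspg4 of -0.12 (-0.35 to 0.11) and Vcan of -0.20 (-0.47 to 0.07). At 1 wpt Vcan had 94.5, 140 and 125 CPM in +MSC and 214, 243 and 136 CPM in +PBS. These ranges overlapped, and the difference of -0.72 ± 0.23 (SE) on the log2 scale (adjusted p = 0.126) was not called. A test of whether the effect of +MSC differed between the weeks found 0 of the 10 genes and 0% of all genes. Vcan had the smallest unadjusted p of the 10 in it (0.0293), and DESeq2's version of the test also called 0 of the 10.

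All +MSC libraries lay below Intact for Acan, Cspg5, Hapln1, Hapln2 and Hapln4, but only Acan was called at all 3 times. Cspg5 was called at none of them (adjusted p = 0.258, 0.341 and 0.0963 at 1, 2 and 4 wpt). How many of all genes lay apart from Intact in this way is not given here. By edgeR Acan was a DEG lower in +MSC-1w (log2 fold change -1.58 ± 0.28) and +MSC-4w (-1.35 ± 0.25) and differed lower in +MSC-2w (-0.93 ± 0.28, adjusted p = 0.0204). Hapln1 was a DEG lower in +MSC-1w (-1.97 ± 0.55) and +MSC-4w (-1.86 ± 0.49) and missed the threshold in +MSC-2w (-1.49 ± 0.54, adjusted p = 0.0552). Hapln4 differed lower in +MSC-1w (-1.48 ± 0.50, adjusted p = 0.0285) and +MSC-4w (-1.24 ± 0.45, adjusted p = 0.0417) and was not called in +MSC-2w (-0.82 ± 0.49, adjusted p = 0.264). Hapln2 was the third DEG in +MSC-1w (-1.11 ± 0.27) and differed lower in +MSC-4w (-0.78 ± 0.24, adjusted p = 0.0182), the latter not without +MSC-4w replicate 2 or 3 (adjusted p at most 0.074). Both calls of Hapln4 were lost without single libraries, at 1 wpt Intact replicate 1 or 3 or +MSC-1w replicate 2 or 3 (adjusted p at most 0.101), and at 4 wpt any Intact library or +MSC-4w replicate 2, 3 or 4 (at most 0.115), and that of Acan at 2 wpt without +MSC-2w replicate 2 or 3 (at most 0.0892). In all, 3, 0 and 2 of the 10 genes were DEGs lower at 1, 2 and 4 wpt against 2.63%, 0.461% and 1.53% of all genes, and 0 were DEGs higher against 7.87%, 5.60% and 7.25%. Without being DEGs, 2 genes differed higher. Cspg4 had 61.5, 93.2 and 101 CPM in +MSC-2w, all above Intact (0.73 ± 0.18, adjusted p = 0.00526), and lost its call without +MSC-2w replicate 3 (0.60, adjusted p = 0.0516). Ncan had 122, 169 and 194 CPM in +MSC-1w, also all above Intact (0.96 ± 0.35, adjusted p = 0.0415), and was not called without Intact replicate 2, 3 or 4 or +MSC-1w replicate 2 or 3 (adjusted p between 0.065 and 0.149). Of the 10 neuron markers, 3, 1 and 3 differed lower against Intact at 1, 2 and 4 wpt, and their part was not tested. The comparisons of +PBS and of +MSC with Intact share the same 4 Intact libraries.

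Neuron markers were higher in +MSC than in +PBS as well. All 10 had a positive log2 fold change over the mean of the weeks and 9 differed higher (median 1.00 against -0.02 over all genes tested). Their summed level ranged from 1454 to 3367 CPM in +PBS-1w and from 4444 to 9039 CPM in +MSC-1w, from 3270 to 6268 and from 7402 to 10921 CPM at 2 wpt, and from 2114 to 7611 and from 7316 to 9210.3 CPM at 4 wpt, where the highest +PBS library overlapped. Of 6 markers of fast-spiking and motor neurons, 5 differed higher (median 1.11), and of 7 fibroblast markers 6 differed lower (median -1.25). Of the oligodendrocyte and astrocyte markers, 1 of 10 and 2 of 8 differed higher. Of 8 markers of microglia and macrophages, 7 had a negative log2 fold change and 2 differed lower (median -0.20). For deviations from the group means over the 26 libraries, r with the mean of the 10 neuron markers was 0.91 for Hapln4. It was 0.76 for Cspg5, 0.71 for Hapln1, 0.62 for Hapln2, 0.45 for Bcan, 0.21 for Acan and 0.03 for Ptprz1. For Ncan it was -0.12, for Cspg4 -0.28 and for Vcan -0.51. Several genes had a higher r, taken in the same way, with markers of cells other than neurons. With astrocyte markers it was 0.91 for Ncan, 0.89 for Ptprz1 and 0.46 for Vcan. It was 0.89 for Bcan with oligodendrocyte precursors, 0.83 for Hapln2 with oligodendrocytes and 0.70 for Cspg4 with microglia and macrophages. The part of all these markers in the difference between +MSC and +PBS was not tested.

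**Figure D3:**
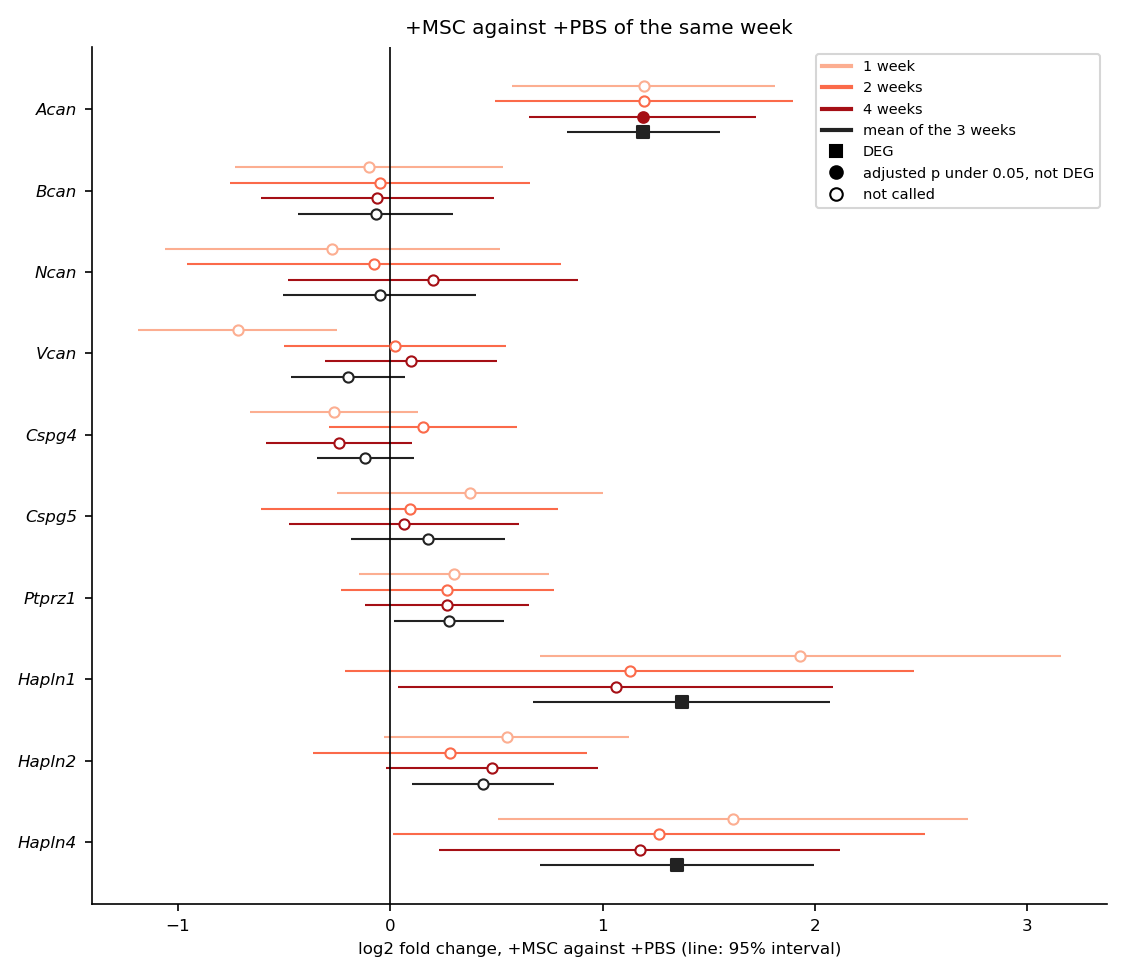
Log2 fold change of +MSC against +PBS for each gene at 1, 2 and 4 weeks after transplantation and for the mean of the 3 weeks; lines are 95% intervals, squares are DEGs, filled circles have an adjusted p under 0.05 without being DEGs and open circles are not called. The mean of Acan (1.19), Hapln1 (1.37) and Hapln4 (1.35) stands to the right of the other 7 genes.

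The make-up of the lectican transcripts, per kb, was different after injury. The 4 lecticans summed to 161 ± 12.7 CPM per kb in Intact and 168 ± 51.7 in sub-SCI, within the spread of the libraries. Bcan made up 81.4 ± 1.28% of this sum in Intact and 50.8 ± 10.8% in sub-SCI. Ncan went from 9.92 ± 1.19% to 28.9 ± 3.59%, Vcan from 5.84 ± 0.614% to 19.7 ± 10.3% and Acan from 2.84 ± 0.227% to 0.582 ± 0.39%. In +PBS-4w Bcan was back at 79.2 ± 5.66% and Vcan at 6.28 ± 1.61%, while Acan made up 0.541 ± 0.223%. In +MSC-4w Acan made up 1.24 ± 0.0777%.

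The sum of the 3 link proteins was lower after injury. It was 468 ± 24.6 CPM per kb in Intact, 165 ± 40.7 in sub-SCI, 173 ± 46.3 in +PBS-4w and 257 ± 87.0 in +MSC-4w. Hapln2 made up 79.4 ± 3.01% of it in Intact and 95.8 ± 3.19% in sub-SCI, and Hapln4 19.3 ± 2.72% and 3.93 ± 2.99%. In +PBS-4w Hapln4 had a share of 8.85 ± 4.55% and in +MSC-4w of 15 ± 1.49%. Hapln1 never made up more than 1.29 ± 0.311%, its mean in Intact. These shares follow from the levels above and were not tested separately.

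**Figure D4:**
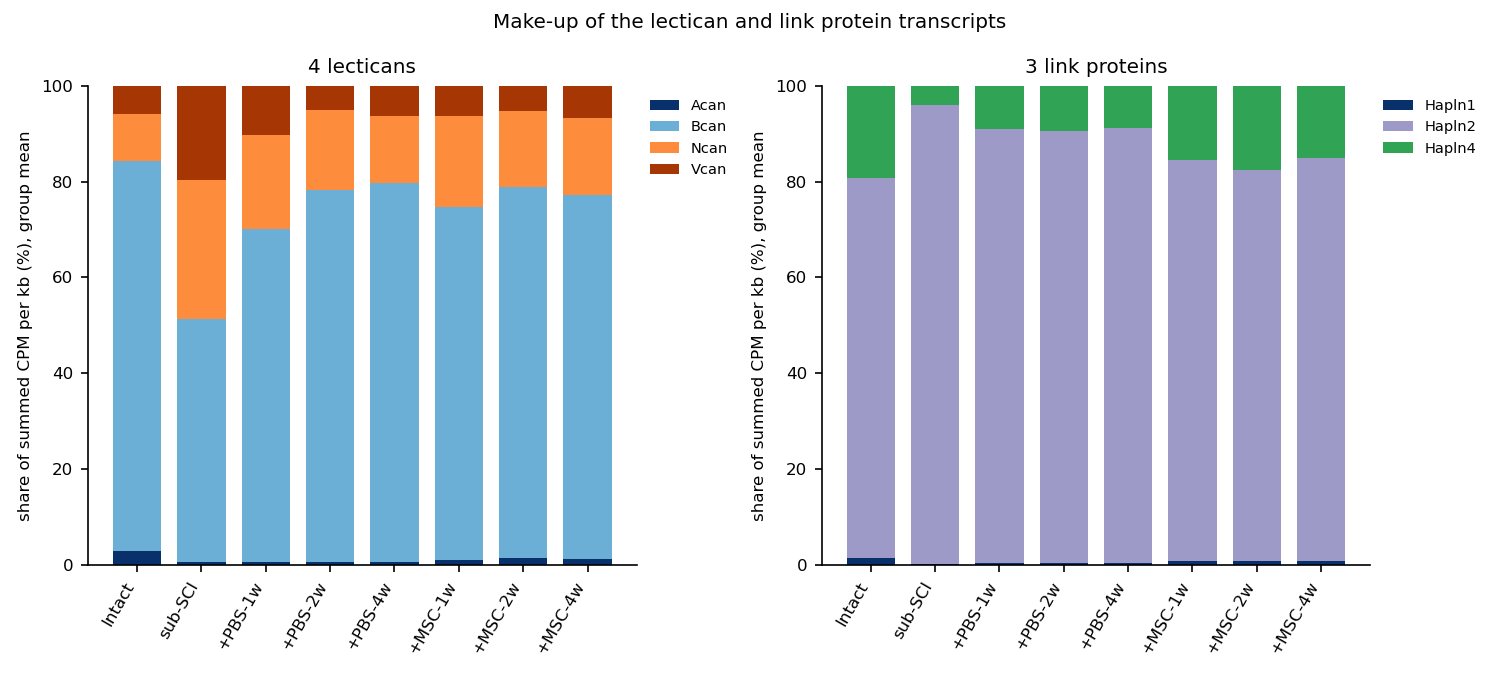
Share of each gene in the summed CPM per kb of the 4 lecticans (left) and the 3 link proteins (right), as group means in %. Bcan has the largest lectican share in every group and its smallest share in sub-SCI (50.8%), and the share of Hapln4 is smallest in sub-SCI (3.93%) and larger in the +MSC groups than in the +PBS groups.

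The ratios of a lectican to the link protein gene next to it follow from the levels above and were not tested. Upstream sequences are shown for pairs picked because their genes moved in opposite directions. A large change of their ratios was thus set by that choice. The ratio of Ncan to Hapln4, in CPM per kb, had a median of 0.183 (0.154 to 0.195) over the Intact libraries and of 11.4 (2.90 to 23.4) in sub-SCI. It was 2.83 in +PBS-1w, 1.74 in +PBS-2w and 2.26 in +PBS-4w, and 1.22, 0.774 and 0.650 in +MSC at the same weeks. Vcan to Hapln1 went from a median of 1.71 (1.16 to 1.89) in Intact to 95.1 (32.7 to 328) in sub-SCI, where Hapln1 counts were few, and was 20.3 in +PBS-4w and 6.12 in +MSC-4w. Bcan to Hapln2 moved less, from 0.362 in Intact to 0.514 in sub-SCI and 0.726 in +PBS-4w. Acan to Hapln3, a link protein found outside the nervous system as well, moved the other way, from 2.26 (1.73 to 2.58) in Intact to 0.478 (0.406 to 1.88) in sub-SCI, where the ranges overlapped and Hapln3 itself had at most 2.21 CPM. In both of the first pairs the lectican rose and its neighbour fell in sub-SCI, which is why their sequences are shown.

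**Figure D5:**
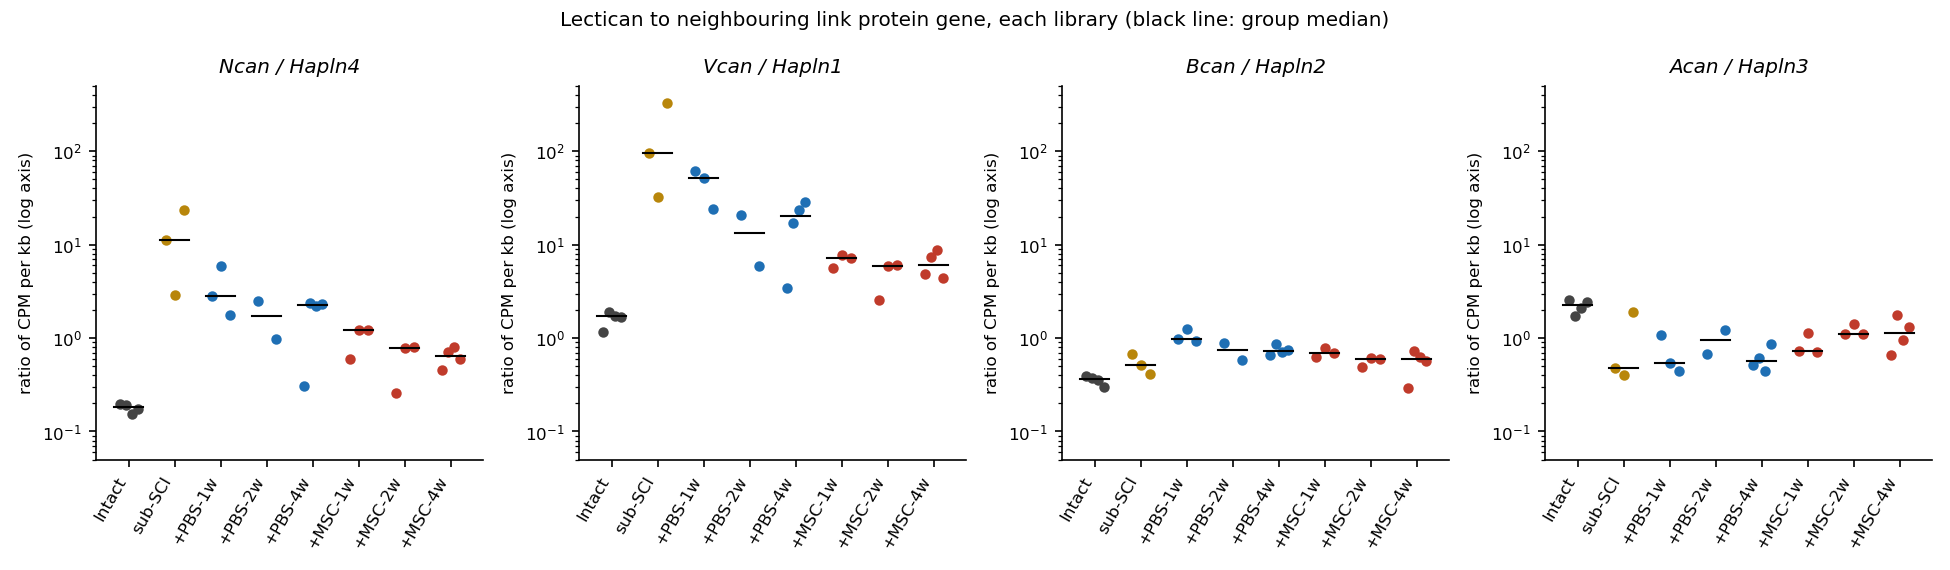
Ratio of each lectican to the neighbouring link protein gene in every library, in CPM per kb on a log axis, by group; each point is a library and the black line the group median. Ncan to Hapln4 and Vcan to Hapln1 are lowest in Intact (0.183 and 1.71) and highest in sub-SCI (11.4 and 95.1), while Acan to Hapln3 is highest in Intact.

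Over the 26 libraries, which share the group differences above, the levels of Hapln1 and Hapln4 were the most alike of the 45 pairs (Pearson's r = 0.97 of log2 CPM, 0.89 for deviations from the group means). Acan followed both across groups (r = 0.85 with Hapln1 and 0.81 with Hapln4) but hardly within groups (0.16 and 0.09). Ncan and Ptprz1 showed the reverse, with r = 0.11 over all libraries and 0.89 within groups. The correlation of Vcan with Hapln4 was -0.70 over all libraries and -0.55 within groups.

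Of all genes tested, Nat8l, the neuronal enzyme that makes N-acetylaspartate, was among those most like Hapln4 (r = 0.996). Hapln1 was most like Sptssb (0.986), Vsnl1, a neuronal calcium sensor (0.981), and Tmem25 (0.980). Acan was most like Tpd52l2 (0.957), the citrate transporter Slc13a5 (0.943) and Fam189b (0.941), with lower values within groups (0.64, 0.77 and 0.51). Vcan was most like the matrix protein Fbln2 (0.951), Ptgfrn (0.936) and Nup133 (0.909). Ptprz1 was most like the neurotrophin receptor Ntrk2 (0.927), Tmem56 (0.903) and the astrocytic water channel Aqp4 (0.902), and Bcan like the glial adhesion molecule Hepacam (0.859), Adgrg1 (0.838) and Llgl1 (0.836). Hapln2 went with AABR07028769.1 (0.972), Cdhr2 (0.955) and Tgfa (0.951), Cspg5 with Dnaja4 (0.955), Dynll2 (0.923) and Ly6h (0.922), Ncan with Peli1 (0.850), Sh3glb1 (0.847) and Inava (0.843), and Cspg4 with Dazap2 (0.823), Sh3tc1 (0.794) and Ssc5d (0.789). The leading correlation was lowest for Cspg4 (0.823).

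The genes around the 10 were examined by 8 lists of 66 genes, all of which were tested. In sub-SCI against Intact, 29 of the 66 differed higher and 18 lower, 71.2% in all against 61.4% of all genes tested. Over the mean of the weeks in +MSC against +PBS, 7 differed higher and 16 lower, 34.8% against 23.2%, and 0 were DEGs.

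Of 11 genes for the synthesis of the chondroitin sulfate chain, 2 differed higher and 4 lower in sub-SCI (median log2 fold change -0.15). The largest were Chsy1, a polymerase of the chain, with 21.7 CPM in Intact and 99.5 CPM in sub-SCI (log2 fold change 2.20 ± 0.18), and Xylt1, which starts the chain, with 22.5 and 7.35 CPM (-1.61 ± 0.44). Among 10 sulfotransferases and epimerases, 3 differed higher and 2 lower (median -0.11). Dse, which converts chondroitin to dermatan sulfate, rose from 12 to 66.1 CPM (2.46 ± 0.25) and Chst14, a dermatan sulfotransferase, from 3.37 to 19.9 CPM (2.56 ± 0.31). In +MSC against +PBS, over the mean of the weeks, Chsy1 (-0.39 ± 0.11), Xylt2 (-0.20 ± 0.06), Chst12 (-0.32 ± 0.08), Chst14 (-0.65 ± 0.18), Chst15 (-0.61 ± 0.19) and Dse (-0.60 ± 0.15) differed lower and Chsy3 (0.52 ± 0.18), at 1.39 CPM in +PBS and 1.99 CPM in +MSC, higher. Chst12 also differed at 4 wpt alone (-0.52 ± 0.12, adjusted p = 0.0206).

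Among enzymes that take the matrix apart, members of both lists differed in either direction after injury. Of 7 lectican-cleaving proteases, 5 differed higher and 1 lower in sub-SCI (median 1.15), the latter Adamts20 (-1.13 ± 0.35). The largest were Adamts8, with 1.84 CPM in Intact and 12.7 CPM in sub-SCI (2.77 ± 0.38), and Adamts15, with 10.2 and 69.9 CPM (2.77 ± 0.49). In +MSC against +PBS 0 of the 7 differed in the mean of the weeks. Of 9 lysosomal enzymes that degrade the sugar chains, 7 differed higher and 2 lower in sub-SCI (median 1.64), the latter Hyal1 (-1.40 ± 0.31) and Ids (-1.47 ± 0.28). The largest were Gusb, the lysosomal beta-glucuronidase, with 12.7 and 137 CPM (3.44 ± 0.31), and Galns, a sulfatase, with 15.5 and 117 CPM (2.91 ± 0.24). In +MSC against +PBS 5 of the 9 differed lower in the mean of the weeks and 0 higher: Gusb (-0.72 ± 0.18), Hexa (-0.53 ± 0.13), Galns (-0.45 ± 0.14), Hyal2 (-0.29 ± 0.08) and Arsb (-0.27 ± 0.09). All 8 markers of microglia and macrophages differed higher in sub-SCI (median 3.09) and 2 differed lower in +MSC against +PBS (median -0.20), and their part in the values of these enzymes was not tested.

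Partners and receptors were mixed. Of 8 other net and matrix partners, 4 differed higher and 2 lower in sub-SCI (median 0.08). Tnc, tenascin-C, had 9.99 CPM in Intact and 645 CPM in sub-SCI (6.0 ± 0.56) and Tnn, tenascin-N, 1.48 and 45.4 CPM (4.90 ± 0.83). In +MSC against +PBS Crtac1 (0.86 ± 0.23) and Hapln3 (0.67 ± 0.23) differed higher and Ptn, pleiotrophin, a ligand of Ptprz1, lower (-0.46 ± 0.16). Of 8 receptors for chondroitin sulfate or hyaluronan, 4 differed higher and 2 lower in sub-SCI (median 0.78), the largest being Lyve1, with 6.75 and 47.4 CPM (2.81 ± 0.51), and Cd44, the main hyaluronan receptor, with 39.7 and 212 CPM (2.42 ± 0.19). Ptprs, the receptor phosphatase through which chondroitin sulfate acts on axons, was the only one of the 8 that differed in +MSC against +PBS, with 219 and 273 CPM (0.32 ± 0.07 in the mean, and 0.38 ± 0.10 at 4 wpt, adjusted p = 0.033). Of the 3 hyaluronan synthases, Has3 differed lower in sub-SCI (-1.09 ± 0.27, from 4.77 to 2.25 CPM) and 0 differed in +MSC against +PBS.

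The other chondroitin or dermatan sulfate proteoglycans split by kind. Of the 10, 4 differed higher and 4 lower in sub-SCI (median 0.98). Bgn, biglycan, a small proteoglycan of connective tissue, had 70.7 CPM in Intact and 717 CPM in sub-SCI (3.34 ± 0.58), and Spock2, testican-2, had 336 and 44.5 CPM (-2.91 ± 0.25). In +MSC against +PBS, over the mean of the weeks, the testicans Spock1 (0.61 ± 0.16), Spock2 (0.84 ± 0.14) and Spock3 (0.66 ± 0.23) differed higher. Bgn (-1.27 ± 0.34), Dcn, decorin (-1.21 ± 0.39), Smoc2 (-1.61 ± 0.56) and Srgn, serglycin (-0.49 ± 0.13), differed lower. Spock2 was a DEG at 4 wpt, with 95.3 CPM in +PBS-4w and 198 CPM in +MSC-4w (1.06 ± 0.21, adjusted p = 0.0093), and Spock1 differed there (0.90 ± 0.25, adjusted p = 0.0423). Fibroblast markers moved in the direction of Bgn in both comparisons (median 3.96 in sub-SCI and -1.25 in +MSC against +PBS). In +MSC against +PBS this was also the direction of Dcn, and the part of these markers was not tested.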

How the data were processed

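RNA from 26 spinal cord samples was sequenced from poly(A) libraries. Per the study's methods and the submitters' processing notes, the authors trimmed reads (Trim Galore 0.5.0), aligned them with HISAT2 2.1.0 (SAMtools 1.9), removed reads that mapped to the human genome GRCh38 and counted proper pairs on Rnor6 genes with featureCounts 1.6.4. The deposited table holds whole-number counts per gene, not normalized, with gene lengths. The annotation release and the strand setting are not given in the sources used here, so overlapping antisense genes cannot be told apart. The removal of human-like reads can lower conserved genes.

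Groups were taken from the labels. Of 32883 genes, 6513 had no count in any library, and 17990 were kept by filterByExpr. edgeR 4.0.16 (R 4.3.3) with TMM scaling and a quasi-likelihood test in 1 model of 8 groups gave 12 comparisons with Benjamini-Hochberg adjustment. SEs are the absolute log2 fold change over the square root of F, and 95% intervals use the t quantile. Correlations use log2 CPM with a prior count of 2. The pipeline was tested on simulated counts. Alternatives were DESeq2 1.42.0, other scaling and filters, 2-group fits, a replicate block and leaving out each library. Named genes were, per member, the 3 most correlated genes (for Hapln4, 2 of them are not reported here) and, per pathway list, the 2 largest changes after injury among those that differed and every gene that differed in +MSC against +PBS. Adamts20, Hyal1 and Ids were named after their values were seen. The members and lists were chosen with earlier results of these data known. Sequences came from RefSeq (GRCr8), whose coordinates do not apply to Rnor6. The authors' methods give another number of +MSC-2w repeats than the labels, which were followed.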

Additional observations from a re-analysis of the deposited data

Results flagged for a closer look

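In the 4 +PBS-4w libraries, replicate 1 stood apart for 3 of the 10 genes, its gap to the nearest library being above Dixon's 95% critical value for 4 samples. Cspg5 was at 61.1 CPM there and between 23.6 and 28.1 CPM in the other 3 libraries. Hapln1 was at 9.20 CPM against 1.84 to 2.46 CPM, and Hapln4 at 136 CPM against 29.7 to 42.1 CPM. In all, 3 of 30 sets of 4 values were marked in this way, from the 10 genes in each group of 4 libraries. All 3 marks fell on the same library, and Hapln1 and Hapln4 have closely correlated levels (r = 0.97 over the 26 libraries). The marks are thus not separate events, and their number cannot be set against a chance rate. The same library had the highest summed level of the 10 neuron markers in +PBS-4w, 7611 CPM against a median of 2581 CPM, and the part of this in the 3 values was not tested. Without it the log2 fold change of +MSC-4w against +PBS-4w was 1.49 for Acan (edgeR, adjusted p = 0.00189), 1.87 for Hapln1 (adjusted p = 0.0106) and 1.89 for Hapln4 (adjusted p = 0.0062), against 1.19, 1.06 and 1.17 with it.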

How the results depend on the processing

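Of 4200 alternative values for the 120 log2 fold changes of the 10 genes, 3968 kept direction and side of the 0.05 threshold, 58 lost and 97 gained the call, and 77, none of them of a called value, changed sign. The cause of these shifts was not tested, except that fewer libraries entered where some were left out. Where +PBS-2w was left with 1 library, that library was assumed to vary like the other groups. The precision was limited by groups of 2 to 4 libraries and by 18 to 117 counts of Hapln1 in sub-SCI. The labels do not say that replicate numbers pair the samples, and whether they do was not settled. For libraries of the same number, r of the deviations lay between -0.164 and 0.247. Libraries correlated best with their own number in 4 of 6 at 1 wpt, 0 of 5 at 2 wpt and 6 of 8 at 4 wpt, a hint from the data and not from the design. With the replicate block the DEG counts were 4 in +PBS-1w and 3 in +PBS-2w against Intact (5 and 2 without it), and the other counts were as without it. Without the fold threshold, at an adjusted p under 0.05, 8 genes were called in +PBS-1w, 5 in +PBS-2w, 5 in +MSC-1w, 2 in +MSC-2w and 4 in +MSC-4w against Intact, 1 in +MSC-4w against +PBS-4w and 2 in +PBS-4w against sub-SCI. In +MSC-4w against +PBS-4w, 4.00% of all genes passed, and the other shares are not given here. Of 17990 genes, 10424, 8274, 7813, 5848 and 7530 had an unadjusted edgeR p under 0.05 in those comparisons with Intact, and 6644 in that with sub-SCI. DESeq2 on all libraries called 1, 0 and 1 genes in +MSC against +PBS at 1, 2 and 4 wpt, and 3, 2 and 1 on the compared groups. In +MSC-2w against Intact, DESeq2 and edgeR on these groups called 1 gene each. For these alternative fits no share of all genes is given. In +PBS-4w against sub-SCI, 2 genes in place of 1 were DEGs with median-of-ratios size factors, no filter, at least 10 counts, a term for replicate 1 and both DESeq2 fits. With all replicate 1 libraries left out, 1 gene was a DEG in each of +PBS-2w, +MSC-1w and +MSC-2w against Intact, +MSC-4w against +PBS-4w and the mean of the weeks. Leaving out 1 library gave 6 to 7 DEGs in sub-SCI, 4 to 6 in +PBS-1w, 1 to 3 in +PBS-2w and 4 to 5 in +PBS-4w against Intact. In +MSC against +PBS it gave 0 to 0 at 1 and 2 wpt, 0 to 2 at 4 wpt and 1 to 3 in the mean of the weeks. It gave 1 to 4, 0 to 0 and 1 to 2 in +MSC against Intact at 1, 2 and 4 wpt, 1 to 2 in +PBS-4w against sub-SCI and 0 to 0 for the difference between weeks. The count became 1 in +PBS-2w against Intact without Intact replicate 1 or +PBS-2w replicate 1, in the mean of the weeks without +MSC-1w replicate 1, +MSC-2w replicate 1, +PBS-1w replicate 3 or +PBS-2w replicate 1, in +MSC-1w against Intact without any +MSC-1w library, and in +MSC-4w against Intact without any Intact library or +MSC-4w replicate 2, 3 or 4. In +MSC-4w against +PBS-4w it became 1 without sub-SCI replicate 3 and 2 without +PBS-4w replicate 1, and in +PBS-4w against sub-SCI 2 without +MSC-2w replicate 1 or +PBS-1w replicate 2 or 3. The log2 fold changes that changed sign follow. Bcan in +PBS-1w against Intact was 0.0037 with size factors, 0.040 with no filter, 0.031 with at least 10 counts, 0.024 without all replicate 1 libraries, 0.020 and 0.018 with edgeR and DESeq2 on the compared groups and 0.0045 with DESeq2 on all. Vcan in +PBS-2w against Intact was 0.014 with no filter, 0.0014 with at least 10 counts, 0.061 with the replicate block and 0.042 with the term for replicate 1. Vcan in +MSC-2w against Intact was 0.017 with no filter, 0.012 with at least 10 counts, 0.0017 with the replicate block, and 0.039 and 0.028 with edgeR and DESeq2 on the compared groups. In +MSC-2w against +PBS-2w, Bcan was 0.058 and Vcan -0.059 with the replicate block, and Vcan -0.045 with the term for replicate 1. Without all replicate 1 libraries Vcan was 0.053 and Ptprz1 0.083 in +PBS-4w against Intact, Bcan 0.19, Ncan 0.31 and Cspg5 -0.089 in +MSC-2w against +PBS-2w, Bcan 0.083 and Vcan -0.035 in +MSC-4w against +PBS-4w, Bcan 0.074, Ncan 0.032 and Cspg4 0.015 in the mean of the weeks, Vcan 0.11 in +MSC-2w against Intact and Hapln1 -0.16 in +PBS-4w against sub-SCI. With 1 library left out in turn, values that changed sign in 1 or more of the fits lay in these ranges. In +PBS-1w against Intact these were Bcan -0.49 to 0.31 and Ptprz1 -0.42 to 0.030. In +PBS-2w against Intact these were Vcan -0.11 to 0.066. In +PBS-4w against Intact these were Vcan -0.20 to 0.13 and Ptprz1 -0.23 to 0.081. In +MSC-1w against +PBS-1w these were Bcan -0.44 to 0.37 and Ncan -0.63 to 0.38. In +MSC-2w against +PBS-2w these were Bcan -0.19 to 0.11, Ncan -0.34 to 0.21, Vcan -0.10 to 0.16 and Cspg5 -0.078 to 0.22. In +MSC-4w against +PBS-4w these were Bcan -0.12 to 0.0014, Ncan -0.019 to 0.36, Vcan -0.071 to 0.23 and Cspg5 -0.080 to 0.46. In the mean of the weeks these were Bcan -0.18 to 0.087 and Ncan -0.17 to 0.17. In +MSC-2w against Intact these were Bcan -0.090 to 0.22 and Vcan -0.14 to 0.13. In +PBS-4w against sub-SCI these were Acan -0.47 to 0.28, Cspg5 -0.0025 to 0.79 and Hapln2 -0.19 to 0.14.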
